A study of Mus musculus with 8 samples.

Results

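The vascular endothelial growth factor (VEGF) family was followed in CD8+ T cells from mouse spleen, with and without ATF4 overexpression. ATF4 is a transcription factor that carries the integrated stress response to its target genes. The family was taken as 9 of the 55291 genes in the deposited table: the ligands Vegfa, Vegfb, Vegfc and Pgf, the receptor tyrosine kinases Flt1, Kdr and Flt4, and the co-receptors Nrp1 and Nrp2. The genes were chosen by symbol, and the family was chosen with its measured difference between ATF4 overexpression and WT in view. The values of these genes in that comparison are therefore given as a description, without a test.

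Libraries of polyadenylated RNA were made from 8 samples of spleen cells of naïve mice, enriched for CD8+ T cells on magnetic particles with no fluorescence sort. The titles call all 8 samples naïve CD8 T cells. In 4 of them the genotype label is ATF4 Tg/Tg and the title names ATF4 overexpression, and the other 4 are labelled WT. The design text names the mice as ATF4Tg/Tg or E8IcreATF4Tg/Tg, so that by that text every animal would carry the transgene and the E8I Cre driver, which is active in mature CD8+ T cells, would set the groups apart. WT is therefore written as in the sample labels, with no claim on the alleles. Strain, age and sex are not in the labels. Whether each sample is a mouse of its own is not in the labels. The p-values therefore reflect only how much these samples vary, and part of that variation may be technical.

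The ligand VEGF-A binds the receptor tyrosine kinases Flt1 and Kdr on endothelial cells, and Kdr carries most of the signal for growth of blood vessels. VEGF-B and placental growth factor, the product of Pgf, bind Flt1, whereas VEGF-C binds Flt4, the receptor of lymphatic endothelium. The neuropilins Nrp1 and Nrp2 have no kinase of their own and bind both VEGF ligands and class 3 semaphorins. Vegfa is a known target of hypoxia-inducible factors and of the integrated stress response.

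Summed estimated counts ran from 93478668 to 125974114 per library. Atf4 itself was at 285, 308, 165 and 165 CPM (counts relative to library size) in WT replicates 1 to 4 and at 445, 427, 228 and 212 CPM in the ATF4 overexpression replicates 1 to 4. Its log2 fold change was 0.51 ± 0.31 (SE, n = 4 per group) with an adjusted p of 0.37 by edgeR's quasi-likelihood test, and the libraries of the groups overlapped. Asns, a textbook ATF4 target that makes asparagine, rose from a mean of 0.307 to 166 CPM (log2 fold change 9.10 ± 0.21, adjusted p 1.1e-08, edgeR). Replicates 1 and 2 differ from replicates 3 and 4 in both groups, and their columns are also spelled differently in the table, without and with a hyphen. They are called library set 1 and library set 2 here. Within each set, both ATF4 overexpression libraries were above both WT libraries for Atf4, so the overlap appears only when the sets are pooled. Another feature of the table is that 4 libraries, WT replicates 1 and 4 and ATF4 overexpression replicates 1 and 2, hold few low values: their ratio of genes with 2 to 8 counts to genes with 9 to 15 counts was 0.853 to 1.15, against 1.51 to 2.12 in the other 4. The members with few counts are touched by this, and a 0 in those 4 libraries is a value listed at 0. Leaving out those 4 keeps WT replicates 2 and 3 and ATF4 overexpression replicates 3 and 4. Group and library set are then partly mixed. In bulk libraries, fewer cells of a type and less RNA per cell cannot be told apart.

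Of the 9 members, 8 had enough counts to enter the model across 16630 genes, and Pgf did not. In that model 3 members, Vegfa, Nrp1 and Kdr, lay past an adjusted p of 0.05 on the higher side, beside 9.16% of all genes tested, and 0 lay past it on the lower side, beside 4.89%. In 4 members, Vegfa, Vegfc, Kdr and Nrp1, every ATF4 overexpression library was above every WT library, as was the case for 13.3% of all genes tested. In 0 members was every ATF4 overexpression library below every WT library, as was the case for 8.66%. Since the family was proposed from this comparison, nothing is read from these counts. The median log2 fold change over all genes tested was -0.02.

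**Figure D1:**
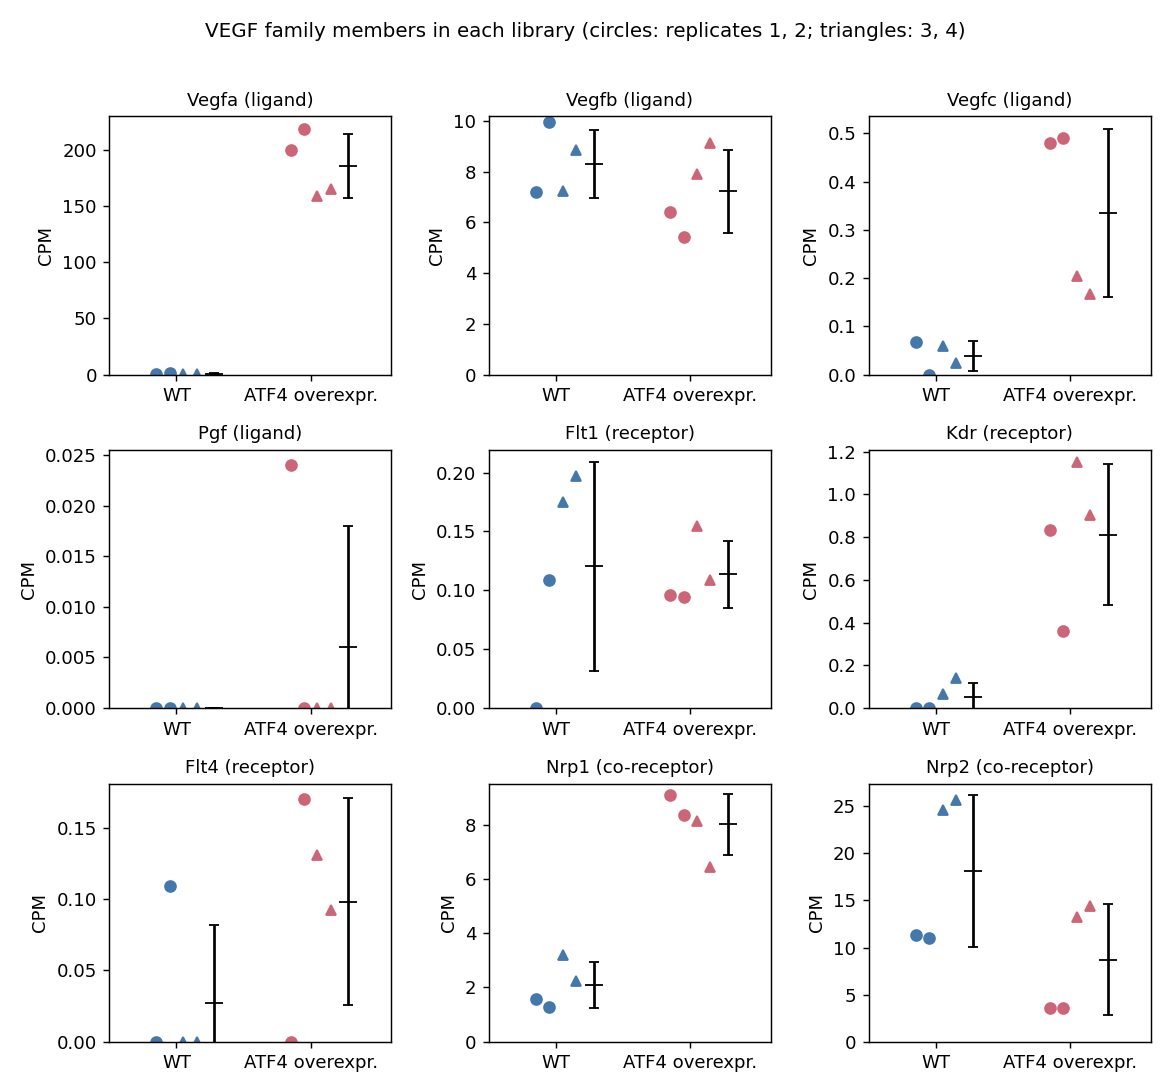
Level of each member in each of the 8 libraries, in CPM on a linear axis that starts at 0 and differs between panels; bars beside the points give the mean and SD (n = 4). Vegfa sits at 159 to 219 CPM in ATF4 overexpression and at 0.148 to 1.15 CPM in WT, while Nrp2 is higher in replicates 3 and 4 of either group.

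Vegfa encodes the main ligand of the family and had the highest difference of the 9 genes. It lies on the minus strand of chromosome 17 at 46016993 to 46032369 (GRCm38, GENCODE M21). The RefSeq promoter table (GRCm38.p6) holds the 250 bases before each start of the gene, and the outermost window of Vegfa is shown beside that of Vegfb, since these ligands differ most in how they compare between the groups. Capitals mark matches, on either strand, to any of the 5 motifs searched. Both are given 5′ to 3′ on the minus strand, chr17:46032378-46032627 for Vegfa and chr19:6987652-6987901 for Vegfb.
Vegfa: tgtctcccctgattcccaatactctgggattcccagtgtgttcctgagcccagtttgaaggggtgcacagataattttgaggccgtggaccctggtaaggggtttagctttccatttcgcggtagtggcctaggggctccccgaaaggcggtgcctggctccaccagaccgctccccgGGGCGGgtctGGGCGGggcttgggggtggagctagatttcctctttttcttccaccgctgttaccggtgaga
Vegfb: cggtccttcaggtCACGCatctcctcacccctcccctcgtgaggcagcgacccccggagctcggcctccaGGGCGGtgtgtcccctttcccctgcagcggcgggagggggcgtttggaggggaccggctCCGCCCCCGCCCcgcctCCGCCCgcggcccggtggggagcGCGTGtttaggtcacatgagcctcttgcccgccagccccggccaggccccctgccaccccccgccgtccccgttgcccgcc

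The motifs were TGATGNAA, the core of composite sites for C/EBP and ATF proteins, TGACGTCA, the cAMP response element, ACGTG and GCGTG, the cores of hypoxia response elements, and GGGCGG, the core of a GC box. In the Vegfa window the capitals are 2 GC box cores, which begin 72 and 62 bases before the start. The Vegfb window holds 4 GC box cores and 2 matches to GCGTG, one of them on the opposite strand. GGGCGG is in 32.7% and GCGTG in 28.2% of all 32851 windows of this length, and GC content was 59.2% in the Vegfa window and 76.4% in the Vegfb window. An inner start of Vegfa has a window with 1 match to each hypoxia response core and 1 GC box core. The core ACGTG is in 16.6% of windows. TGATGNAA, in 3.45% of windows, had 0 matches in the 11 windows of the 9 members, and TGACGTCA, in 1.55%, had 1, before Flt1. A match is a description of letters, and the absence of one says only that these letters are not in these windows.

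Vegfa was counted at 0.847, 1.15, 0.667 and 0.148 CPM in WT replicates 1 to 4. In ATF4 overexpression it was at 200, 219, 159 and 165 CPM in replicates 1 to 4. The lowest ATF4 overexpression library was thus far above the highest WT library. Means were 0.704 ± 0.421 and 186 ± 28.6 CPM (SD, n = 4 each), with a log2 fold change of 8.07 ± 0.49 (SE). Summed over libraries the counts were 289 in WT and 87356 in ATF4 overexpression, a ratio of 275 after scaling (95% exact binomial interval 245 to 310). Such intervals cover counting error only, since reads without molecular identifiers are not independent molecules. The difference ranked 36th from the top among the 16630 genes. In WT, 24.8% of the genes tested had a lower mean CPM than Vegfa, and in ATF4 overexpression 93.8% had. Within library set 1 the log2 fold change was 7.73 and within set 2 it was 8.64. The interaction of group and set, which the choice of the family did not use, was 0.93 ± 0.58 with an adjusted p of 0.59 (edgeR).

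**Figure D2:**
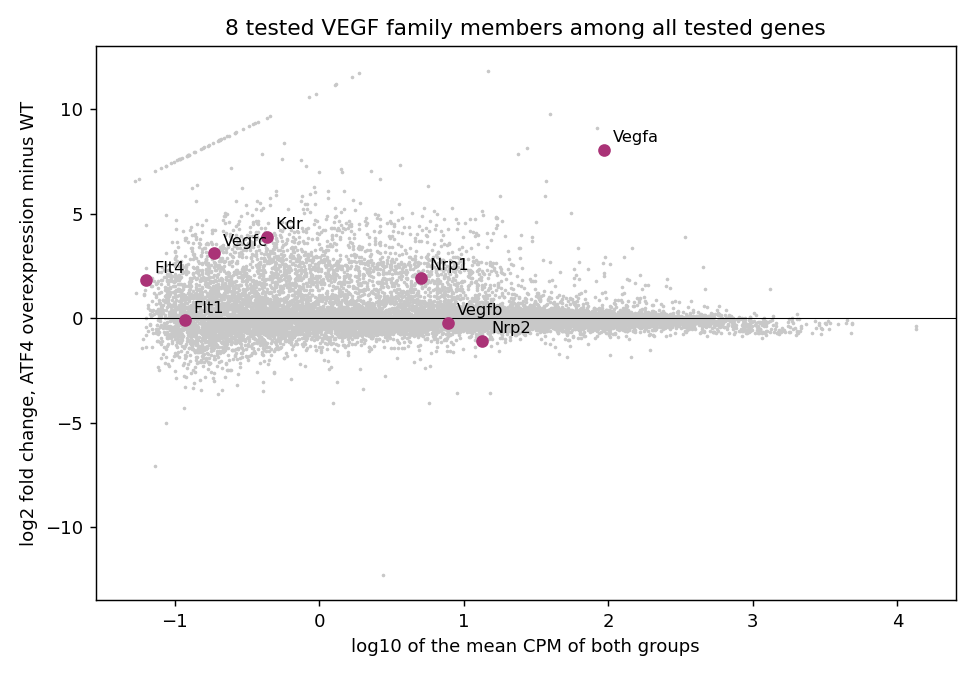
Log2 fold change of ATF4 overexpression against WT for all 16630 genes tested (grey) over the log10 of their mean CPM, with the 8 tested VEGF family members in purple. Vegfa lies apart at 8.07, Kdr, Vegfc, Nrp1 and Flt4 lie above 0, Flt1 and Vegfb near 0, and Nrp2 at -1.06.

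Vegfb, whose product binds Flt1, had nearly level values. It was at 7.22, 9.96, 7.24 and 8.85 CPM in WT replicates 1 to 4. In ATF4 overexpression it was at 6.43, 5.41, 7.91 and 9.15 CPM. The groups overlapped, and the log2 fold change was -0.20 ± 0.20 (SE), within the spread between libraries. It was -0.51 within set 1 and 0.09 within set 2, so its sign differed between the sets.

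Vegfc, the lymphatic ligand, was low everywhere. In WT it was at 0.0678, 0, 0.0584 and 0.0247 CPM, and in ATF4 overexpression at 0.481, 0.491, 0.204 and 0.167 CPM. The groups did not overlap, on sums of 16 and 157 counts (ratio 8.94, 95% interval 5.34 to 16.0). The log2 fold change was 3.12 ± 1.04. Pgf was listed at 0 in 7 libraries and had 3 counts, 0.024 CPM, in ATF4 overexpression replicate 1, so no fold is given.

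Among the receptors, Kdr, the main signalling receptor for VEGF-A, was higher in every ATF4 overexpression library. In WT it was at 0, 0, 0.0667 and 0.14 CPM, and in ATF4 overexpression at 0.833, 0.359, 1.15 and 0.904 CPM. Summed counts were 25 and 391 (ratio 14.2, 95% interval 9.51 to 22.3), and the log2 fold change was 3.91 ± 1.15. Within set 1, where WT had 0 counts against 142, the ratio was 38.8 with WT set to a floor of 3 counts over the group. WT replicate 1 is among the libraries that hold few low values, so this ratio is no lower limit. Within set 2 the ratio was 9.94. Over the 8 fits that each leave out a library, the log2 fold change ran from 3.51 to 5.04. Kdr stayed past the threshold in 1 of these fits, the one without WT replicate 4, and was not past it in the other 7. It was also not past it without the 4 libraries that hold few low values. In the other alternatives that fitted Kdr it was past the threshold. Kdr was chosen with this comparison in view, so these fits describe its value and do not test it.

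Flt1, which binds VEGF-A, VEGF-B and placental growth factor, did not differ beyond its spread. In WT it was at 0, 0.109, 0.175 and 0.197 CPM, and in ATF4 overexpression at 0.0961, 0.0944, 0.155 and 0.109 CPM. On 56 and 54 counts the ratio was 0.878 (95% interval 0.593 to 1.30). Flt4, the receptor for VEGF-C, was listed at 0 in 3 WT libraries and at 0.109 CPM in WT replicate 2. In ATF4 overexpression it was at 0, 0.17, 0.131 and 0.092 CPM, so the groups overlapped. Its 11 and 45 counts gave a ratio of 3.73 (95% interval 1.90 to 7.99) and a log2 fold change of 1.82 ± 1.72, which is 6.50 without WT replicate 2. The values of these receptors rest on few counts.

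The co-receptors differed in sign between the groups. Nrp1, which also binds Sema3a, was at 1.56, 1.29, 3.19 and 2.25 CPM in WT replicates 1 to 4. In ATF4 overexpression it was at 9.08, 8.35, 8.14 and 6.45 CPM, all above the highest WT library. Means were 2.07 ± 0.849 and 8.01 ± 1.11 CPM (SD, n = 4 each), and the log2 fold change was 1.95 ± 0.29 (SE). Over the 8 fits that each leave out a library it ran from 1.78 to 2.24. Without the 4 libraries that hold few low values the log2 fold change was 1.7. The log2 fold change is also given for each library set. It was 2.65 within set 1 and 1.42 within set 2, and the interaction, -1.19 ± 0.34, had an adjusted p of 0.17 (edgeR). The microRNA gene Mir1903 overlaps an exon of Nrp1 on the same strand.

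Nrp2 was at 11.3, 11, 24.6 and 25.7 CPM in WT replicates 1 to 4 and at 3.56, 3.62, 13.2 and 14.4 CPM in ATF4 overexpression. The groups overlap when pooled, since ATF4 overexpression replicates 3 and 4 were above WT replicates 1 and 2, but within each set both ATF4 overexpression libraries were below both WT libraries. The pooled log2 fold change was -1.06 ± 0.54 (SE), with -1.61 in set 1 and -0.86 in set 2. With the replicate number as a block it was -1.24. Without the 4 libraries that hold few low values it was -0.37. That fit sets WT replicates 2 and 3 against ATF4 overexpression replicates 3 and 4, so the difference between the sets enters this value.

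Nrp2 was also the 1 of 8 members called between the library sets, a contrast that the choice of the family did not use, beside 23.5% of all genes tested. Its mean was 7.39 CPM in set 1 and 19.5 CPM in set 2, a log2 difference of 1.55 ± 0.15 (SE) with an adjusted p of 4.6e-05 (edgeR with group in the model). For the interaction of group and set, 0 of 8 members were called by edgeR, beside 0.998% of all genes tested, and 3 had an unadjusted p below 0.05 (Kdr, Nrp1 and Nrp2). Nrp2 was nearest the threshold at 0.77 ± 0.16 with an adjusted p of 0.072.

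Compared per kilobase of exon, the order of the members differed between the groups. In WT, Vegfb was highest at 5.18 ± 0.833 CPM per kilobase (SD, n = 4), followed by Nrp2 at 1.53 ± 0.68, Nrp1 at 0.212 ± 0.0867 and Vegfa at 0.164 ± 0.0982. The libraries of Nrp1 and Vegfa overlapped, and Vegfc, Flt1, Kdr, Flt4 and Pgf, from 0.0154 down to 0, each overlapped the next. In ATF4 overexpression Vegfa was highest at 43.3 ± 6.67 CPM per kilobase, above Vegfb at 4.50 ± 1.02. Nrp1 at 0.818 ± 0.114 and Nrp2 at 0.734 ± 0.499 overlapped there. Below them Vegfc at 0.137 overlapped Kdr at 0.0899, and Flt4, Flt1 and Pgf, from 0.0119 down to 0.00207, each overlapped the next.

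**Figure D3:**
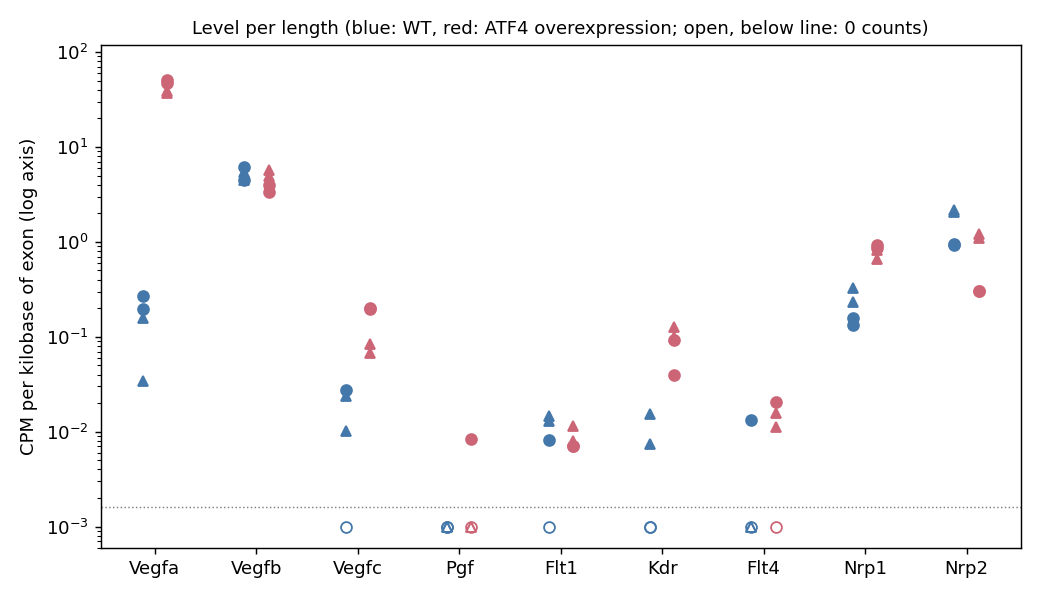
CPM per kilobase of exon for each member in each library, on a log axis; circles are replicates 1 and 2, triangles replicates 3 and 4, and open marks under the dotted line are libraries with 0 counts. Vegfb leads in WT and Vegfa in ATF4 overexpression, and the Nrp1 and Nrp2 points change order between the groups in replicates 1 and 2 only.

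Of the ligands' summed CPM per kilobase, Vegfa made up 4.19%, 4.15%, 3.32% and 0.622% in WT replicates 1 to 4. In ATF4 overexpression its share was 91.7%, 93.5%, 88.1% and 87.0%. The ratio of Nrp1 to Nrp2 per kilobase was 0.166, 0.141, 0.157 and 0.106 in WT. In ATF4 overexpression it was 3.08, 2.80, 0.749 and 0.542, above every WT library, and above 1 only in replicates 1 and 2.

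Genes that act around the family were read from lists, each against its own count. The lists were chosen with results of these libraries known and are no independent evidence of direction. Their shares are read against the 9.16% of all genes tested that rose and the 4.89% that fell. Of 44 tested genes of VEGF signal transduction, 5 rose (11.4%) and 2 fell (4.55%), both near the shares over all genes, and the list's median log2 fold change was -0.00224. Ptprj, a receptor phosphatase that acts on Kdr, rose from 4.05 ± 0.582 to 18.6 ± 1.88 CPM (SD, n = 4 each), a log2 fold change of 2.20 ± 0.15 with an adjusted p of 1.6e-05 (edgeR). Plcg2, a phospholipase C of lymphocyte receptors, rose from 6.53 to 27.1 CPM (2.05 ± 0.15, adjusted p 2.6e-05, edgeR). Gab1, an adaptor (4.31, adjusted p 0.040, edgeR), and Ptk2, focal adhesion kinase (-0.95, adjusted p 0.040, edgeR), were past the test as well. The Gab1 call was lost without any of WT replicates 2, 3 and 4 or ATF4 overexpression replicates 2, 3 and 4 (adjusted p 0.057 to 0.12). It was also lost under limma-voom, within library set 1 and without the 4 libraries that hold few low values (adjusted p 0.06 to 0.35). The Ptk2 call was lost without any of WT replicates 1 and 2 or ATF4 overexpression replicates 1, 2 and 4 (adjusted p 0.088 to 0.11). It was also lost under limma-voom, within library set 2 and without the 4 libraries that hold few low values (adjusted p 0.068 to 0.39). Without any single library, the list had 2 to 3 higher and 0 to 1 lower, and with the replicate block 6 higher and 9 lower.

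Class 3 semaphorins share the neuropilins with the VEGF ligands, and the list also holds other semaphorins and the plexins. Of 18 tested, 5 rose (27.8%) and 1 fell (5.56%), with a median log2 fold change of 0.46. Plxnd1, the receptor for Sema3e, rose from 1.25 to 18.4 CPM (3.88 ± 0.31, adjusted p 4.5e-05, edgeR), and Sema3e was listed at 0 in all libraries. Sema6d (3.87, adjusted p 0.0020), Sema4c (2.74, adjusted p 0.0041) and Plxnb2, the receptor for class 4 semaphorins (2.20, adjusted p 0.0096), rose as well by edgeR. The Sema4c call was lost, at an adjusted p of 0.071, without the 4 libraries that hold few low values. With the replicate block 6 rose and 3 fell. The 1 lower call was lost without any of WT replicates 1 and 2 or ATF4 overexpression replicates 2, 3 and 4.

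Relatives of the family among the platelet-derived growth factor and class III receptor kinases stood higher: 6 of 7 tested rose (85.7%) and 0 fell, with a median of 2.25. Kit, the stem cell factor receptor, rose from 2.90 to 46.5 CPM (4.00 ± 0.45, adjusted p 7.2e-04, edgeR). Csf1r, the receptor of macrophage colony stimulating factor, rose from 3.04 to 20.2 CPM (2.73, adjusted p 0.0010, edgeR), and its ligand gene Csf1 and Pdgfb rose by 2.00 and 1.59. Without the 4 libraries that hold few low values, Csf1 was at an adjusted p of 0.11 and Pdgfb at 0.16. Of the relatives that rose, Csf1r is also on the list of myeloid markers, Flt3 on that of dendritic markers and Pdgfrb on that of stromal markers. The levels of these lists are given below.

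Of 20 tested genes for other angiogenic ligands and receptors, 4 rose (20%) and 1 fell (5%), with a median of 0.91. The count that rose was 2 without WT replicate 3 or ATF4 overexpression replicate 1, and the lower call was lost without any single library. Angpt1, a ligand of the Tie2 receptor, rose from 1.36 to 22.8 CPM (4.06 ± 0.59, adjusted p 0.0023, edgeR), and Tek, which encodes Tie2, from 0.00834 to 1.6 CPM (7.31 ± 1.15, adjusted p 0.0025, edgeR). Tek is also on the list of endothelial markers given below. Jag1, a Notch ligand, and Thbs1, an angiogenesis inhibitor, rose by 3.47 and 2.42. The Jag1 call was lost without any of WT replicates 1 and 3 or ATF4 overexpression replicates 1, 3 and 4 (adjusted p 0.055 to 0.072). It was also lost within library set 2 (adjusted p 0.055). The Thbs1 call was lost without any of the WT libraries or ATF4 overexpression replicates 1 and 2 (adjusted p 0.058 to 0.12). It was also lost under limma-voom, within library set 2 and without the 4 libraries that hold few low values (adjusted p 0.15 to 0.42).

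Of 20 known regulators of Vegfa, 4 rose (20%) and 1 fell (5%), with a median of 0.05. The count that rose was 2 without WT replicate 3 or 4, and the lower call was lost without any single library. Ern1, the IRE1 sensor of the unfolded protein response, rose from 11.6 to 24.9 CPM (1.10 ± 0.14, adjusted p 7.2e-04, edgeR), and Atf6, another sensor, by 0.99 ± 0.17 (adjusted p 0.0042, edgeR), but at an adjusted p of 0.068 without the 4 libraries that hold few low values. With the replicate block 4 regulators rose and 2 fell. Hif3a (2.48) and Xbp1 (0.43) were past the test with adjusted p of 0.020 and 0.026 (edgeR). The Hif3a call was lost without any of WT replicates 2, 3 and 4 or ATF4 overexpression replicates 3 and 4 (adjusted p 0.050 to 0.061), and also under the replicate block, under limma-voom and within library set 1 (adjusted p 0.061 to 0.43). The Xbp1 call was lost without any of WT replicates 3 and 4 or ATF4 overexpression replicates 1 and 2 (adjusted p 0.053 to 0.072), and was at 0.16 without the 4 libraries that hold few low values. Of 24 tested targets of hypoxia-inducible factors, 3 rose (12.5%) and 1 fell (4.17%), near the shares over all genes, with a median of 0.02. Ndrg1 rose by 1.59 ± 0.26 (adjusted p 0.0036), Hk2, a hexokinase, by 1.26 (adjusted p 0.0072) and Slc16a3, a lactate exporter, by 1.81 (adjusted p 0.015), all by edgeR. Slc16a3 was at an adjusted p of 0.052 without ATF4 overexpression replicate 4 and of 0.10 without the 4 libraries that hold few low values. Pdk1, which restrains entry of pyruvate into mitochondria, fell from 360 to 221 CPM (-0.70 ± 0.08, adjusted p 5.7e-04, edgeR). With the replicate block the hypoxia list had 7 higher and 4 lower, and without WT replicate 1 it had 2 lower. In the list of ATF4 targets, 21 of 23 tested rose and 0 fell, with a median of 3.39.

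**Figure D4:**
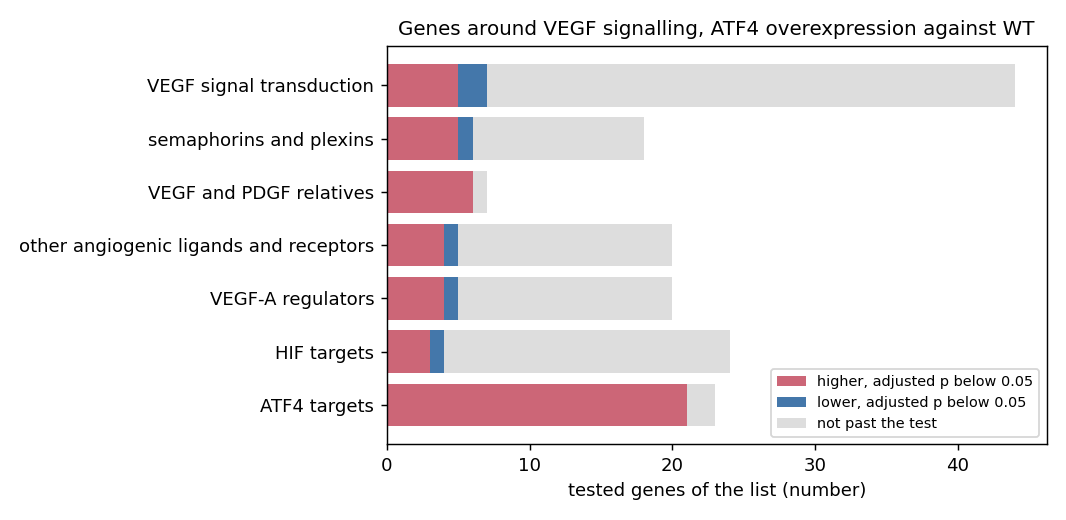
Number of tested genes of each list that were higher (red) or lower (blue) at an adjusted p below 0.05, or not past the test (grey), in ATF4 overexpression against WT. ATF4 targets rose in 21 of 23, whereas 3 of 24 targets of hypoxia-inducible factors rose and 1 fell.

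Markers of other cells moved with these results. Summed CPM of the myeloid list ran from 28.8 to 79.0 in WT and from 171 to 348 in ATF4 overexpression (11 of 15 tested rose, 0 fell), and that of the erythroid list from 13.7 to 16.6 and from 83.5 to 301 (8 of 10 rose). Without the 4 libraries that hold few low values the myeloid count was 8 and the erythroid count 8. The erythroid count was 4 within library set 1 and 3 under limma-voom.

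The platelet list ran from 26.7 to 36.9 and from 68.7 to 83.6 (6 of 9 tested rose), with most of the sum from Itgb3, at means of 29.1 and 62.1 CPM. Its count was 3 without ATF4 overexpression replicate 4, within library set 1 and without the 4 libraries that hold few low values. The NK cell list ran from 111 to 225 and from 237 to 484 (4 of 9 rose). Eomes, not past the test, was at means of 104 and 101 CPM in it. The groups lay further apart in set 1 (111 and 130 against 484 and 442) than in set 2 (203 and 225 against 237 and 248). That difference was not tested. The NK cell count was 1 with the replicate block and without the 4 libraries that hold few low values. It was 2 without any of WT replicates 1 and 2 or ATF4 overexpression replicates 2 and 3. The B cell list ran from 614 to 797 and from 617 to 1020 (8 of 12 rose). Most of its sum was from Ighm, not past the test, at means of 624 and 582 CPM. In set 2 the sums of the list overlapped (614 and 643 against 617 and 655). In the fit within that set, 10 of 12 genes of the list rose. Its count was 1 without WT replicate 4, without ATF4 overexpression replicate 2 or with no filter, 2 without WT replicate 3, 4 without replicate 1 of either group and 0 without the 4 libraries that hold few low values.

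Dendritic markers ran from 254 to 270 and from 300 to 372 (4 of 12 rose, 2 without the 4 libraries that hold few low values). Most of that sum was from Ccr9, not past the test, at means of 188.5 and 197.2 CPM. Regulatory T cells commonly carry Nrp1 in mice, and their markers ran from 90.2 to 97.3 and from 159 to 173 (4 of 9 rose). Most of that difference was Ikzf2, at means of 28.3 and 86.6 CPM. Il2ra (2.45 and 8.9 CPM), Gpr83 (3.67 and 9.35 CPM) and Lrrc32 (0.19 and 0.82 CPM) were past the test as well. Foxp3, which defines the class, was at 1.38 and 2.19 CPM (adjusted p 0.28, edgeR). Ctla4, Tnfrsf4, Tnfrsf18 and Ikzf4 were not past the test either. The count was 2 without any of WT replicates 1 and 2 or any ATF4 overexpression library. CD4 T cell markers ran from 21.9 to 36.0 and from 45.6 to 54.6 (3 of 5 rose, 1 fell). CD8 T cell markers were by far the most abundant, at 11700 to 12200 CPM in WT and 9360 to 9970 CPM in ATF4 overexpression, and 9 of 16 fell. That count was 4 without WT replicate 3, 5 without ATF4 overexpression replicate 3 or 4, 3 within set 1, 1 without the 4 libraries that hold few low values and 13 with the replicate block. The ratio of mean summed CPM between the groups was 4.81 for the myeloid and 12.6 for the erythroid list. The part of these cells in the values of Vegfa, Kdr, Nrp1 and Nrp2 was not tested.

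Endothelial cells, the best known site of Kdr, Flt1 and Flt4, were followed with 20 markers, of which 11 were tested, 4 rose and 1 fell, with a median log2 fold change of 2.93. The count that rose was 2 without ATF4 overexpression replicate 4. Their summed CPM was 172 to 198 in WT and 155 to 177 in ATF4 overexpression. Without Pecam1, which T cells also carry and which fell by 0.35 on the log2 scale, it was 36.4 to 48.3 and 44.2 to 63.3, most of it Eng at means of 40.2 and 43.7 CPM. Without Eng as well, a step chosen after its values were seen, the other 18 markers summed to 1.24 to 1.83 CPM in WT and 5.75 to 15.9 CPM in ATF4 overexpression, a ratio of means of 7.11. The Pecam1 call was lost within library set 1 and without the 4 libraries that hold few low values (adjusted p 0.060 to 0.14). Sox17, Lyve1 and Clec14a were at 0 in all libraries. Stab2, a scavenger receptor of sinusoidal endothelium, rose from 0.406 to 3.14 CPM (2.95, adjusted p 0.0051, edgeR), and Egfl7 rose by 2.93. The Egfl7 call was lost without any of WT replicates 1 and 2 or ATF4 overexpression replicate 4 (adjusted p 0.054 to 0.067). It was also lost under limma-voom and within library set 1 (adjusted p 0.18 to 0.38). Stromal markers summed to 0.806 to 2.08 CPM in WT and 3.85 to 7.27 CPM in ATF4 overexpression, with 2 of 3 tested higher (1 without WT replicate 3 or any ATF4 overexpression library) and Lum, Pdgfra, Ccl19 and Rgs5 at 0. The part of endothelial and stromal cells in the values of the receptors was not tested.

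The genes most like each member were sought among 12819 genes whose mean reached 1 CPM in the higher group, by Pearson's r of log2 CPM over the 8 libraries. These points share libraries, groups and sets, so the values are a description. Nearest to Vegfa were Dyrk3 (r = 0.994), Tctn1 (0.993) and C1qb (0.992), a complement gene on the myeloid list, and within groups Dnase1l3 (0.995), Prr5 (0.991) and Dnajc19-ps (0.985). Nearest to Nrp1 were Il2rb (0.995), which encodes a chain of the interleukin-2 receptor, Rap1gap2 (0.989) and Pqlc3 (0.987), and within groups Acsbg1 (0.990), Fam78a (0.987) and Peli1 (0.984). Nrp2 was nearest to Rsl1 (0.988), Ints5 (0.987) and Isoc2b (0.986), and within groups to Ccnf (0.999), Zfp322a (0.997) and Esco2 (0.997). Vegfb was nearest to Mdh2 (0.966), Wdr53 (0.958) and Rab9 (0.955), and within groups to Cep89 (0.972), Gabpb1 (0.969) and Lipe (0.968).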

How the data were processed

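Estimated counts per gene were deposited by the authors as 1 table, made with Salmon 1.4.0 on GRCm38.p6 per the submitters' processing notes. The sources used here give no annotation release, read trimming or strand setting. After rounding to whole numbers the values were fitted in R 4.3.3 with edgeR 4.0.16 (TMM factors, filterByExpr, robust quasi-likelihood test, group as the term, Benjamini-Hochberg adjustment over the 16630 genes tested, threshold 0.05). The code was tested on simulated data. CPM use TMM-scaled library sizes. Levels per kilobase divide CPM by the union of exons in GENCODE M21 (GRCm38), which ignores which transcripts were made. Promoter sequences are from RefSeq (GRCm38.p6), and all 9 members matched. Alternatives used DESeq2 1.42.0, limma 3.58.1, other scalings and filters, blocks, each library set alone and fewer libraries.

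Same-numbered WT and ATF4 overexpression libraries deviated together (r = 0.199 to 0.289), but only 2 of 4 WT libraries correlated best with their own number. Differently numbered libraries of the same library set did so too (r = 0.157 to 0.254), and those of different sets had negative r. A rule of r over 0.1 in every pair was met, but it cannot tell pairing by number from a shared library set. Group is the only term of the main fit, and the replicate block is an alternative. No library was a copy of another (chi-square per degree of freedom of at least 42.8 between replicates). The libraries with few low values were marked by a ratio below 1.3, a limit set after the values were seen. Named were all members, Atf4, up to 4 genes per list with the smallest p past the test, and the 3 genes most like each member of at least 1 CPM (log2 CPM with a prior count of 2). Other genes named were chosen after their values were seen. The members and lists were chosen with earlier results of these data known.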

Additional observations from a re-analysis of the deposited data

Results flagged for a closer look

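Chance alone singles out about 1 in 20 groups of 4 libraries by the gap used here, and 17 groups of member values were looked at. Pgf stood apart in ATF4 overexpression replicate 1, at 0.024 CPM from 3 counts, because the other libraries of that group were at 0. Flt4 stood apart in WT replicate 2, at 0.109 CPM, because the other WT libraries were at 0.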

How the results depend on the processing

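Of the 19 alternatives, Vegfa, Vegfb, Nrp1 and Nrp2 had a value in each, Vegfc, Flt1, Kdr and Flt4 in 18, since the filter of at least 1 CPM in 4 libraries removes them, and Pgf was not fitted. No member past the threshold changed sign in these. Over all genes, 1524 were higher and 813 lower. With the replicate block the counts were 2279 and 2237, which takes the share of higher calls from 65.2% to 50.5%, and with the library set as a block they were 2327 and 1927 (54.7%). Within replicates 3 and 4 they were 2434 and 1365, and within replicates 1 and 2 the lower count was 528. Without the 4 libraries that hold few low values 333 were lower, and 79.0% of calls were higher. In that fit group and library set are partly mixed. Without 1 library the higher count ran from 1089 to 1431 and the lower from 518, without ATF4 overexpression replicate 4, to 677. The cause of these shifts was not tested. Members on the higher side went from 3 to 1 without the 4 libraries that hold few low values. Kdr and Nrp1 were lost there, and Vegfa remained. Without 1 library the number ran from 2 to 3, and Kdr was the member lost, in 7 of 8 such fits. DESeq2 put 4 members on the higher side, Vegfc included. Members on the lower side went from 0 to 1, which was Nrp2, under the replicate block, with the set as a block, within replicates 1 and 2 and within replicates 3 and 4. The family was proposed from this comparison, so nothing is read from these member counts. The log2 fold change of Nrp1, 1.95, was 2.65 within replicates 1 and 2 and 1.42 within replicates 3 and 4. Without a filter on low counts, members called between the sets went from 1 to 2 and members with an interaction from 0 to 2, in each case Nrp2 and Vegfa. Vegfa kept a log2 fold change of 7.49 to 8.64 in all alternatives run. The low counts of Kdr, Flt1, Flt4, Vegfc and Pgf limit what can be read of them.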
